A study of Mus musculus with 4 samples.

Results

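Expression of 10 regulators of DNA methylation and Polycomb repression was measured in the spleens of 2 mice with B cell leukaemia and 2 wild type mice. The genes were Dnmt1, Uhrf1, Hells, Dnmt3a, Dnmt3b, Tet1, Tet2, Ezh2, Suz12 and Eed, 10 of 19297 genes tested. They were taken by name from the array annotation, each represented by the probe set that carries its symbol alone and, where a gene had several, by the one with the highest mean over the 4 arrays. All 4 mice were of the 129Sv background and carried floxed RBP-J on both chromosomes. RBP-J is a transcription factor that carries Notch signals to target genes. The leukaemic mice had cre recombinase at both Ren1d alleles, a locus active in renin-producing cells, and were 107 days (replicate 1, female) and 93 days old (replicate 2, male). Their spleens weighed 0.7 g and 0.47 g. The wild type mice had 2 unmodified Ren1d alleles, were females of 80 and 81 days, and had spleens of 0.12 g and 0.16 g. Genotype at Ren1d, age and spleen weight therefore cannot be told apart from the disease. Sex was not balanced between the groups either, as the only male was leukaemic.

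DNA methylation is copied onto new DNA at each replication. Uhrf1 recognises hemimethylated sites and recruits the methyltransferase Dnmt1, while the chromatin remodeller Hells opens packed DNA for methylation. Dnmt3a and Dnmt3b set new marks, and Tet1 and Tet2 oxidise methylcytosine as a step of its removal. Ezh2, Suz12 and Eed form the core of Polycomb repressive complex 2 (PRC2), in which Ezh2 is the enzyme that methylates histone H3. Ezh2 is known in mice for its need in early B cell development, and the human genes DNMT3A, TET2 and EZH2 are mutated in blood cancers.

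Values are log2 expression as deposited, and differences are leukaemic minus wild type. The B cell receptor genes Cd79a and Cd79b read 12.28 to 12.91 on all 4 arrays. Of 7 B cell genes Ebf1 rose (1.11, SE 0.18, limma adjusted p = 0.034) and Cd22 fell by 0.84 (SE 0.14, limma adjusted p = 0.035). Ms4a1 (-0.81, SE 0.21) and Blk (-0.84, SE 0.20) did not pass and lay below wild type on both leukaemic arrays. Pax5 (0.29, SE 0.14) did not pass either and lay above wild type on both leukaemic arrays. The mean of 8 precursor B cell genes stood 2.50 and 2.85 above the wild type mean in leukaemic replicates 1 and 2. In the same 2 mice the mean of 8 T cell genes differed from the wild type mean by -1.76 and -1.15, that of 6 NK cell genes by -1.59 and -1.02, that of 8 neutrophil genes by -1.42 and -0.72, that of 8 macrophage genes by -0.51 and -0.54, and that of 7 erythroid genes by -0.38 and -0.53. The part of this cell makeup in the regulators' differences was not tested. In a bulk sample, fewer cells of a type and less RNA per cell cannot be told apart. Wild type replicate 2 also held pancreas transcripts, with a mean of 8 exocrine genes 5.06 above that of wild type replicate 1.

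Of the 10 regulators 2 rose in leukaemic spleen, Hells and Ezh2, and 0 fell, at a limma adjusted p under 0.05 over all genes. Among all 19297 genes 2.46% were called, 1.43% higher and 1.03% lower. At an unadjusted p under 0.05 stood 6 of the 10 regulators, 5 with higher and 1 with lower values, against 20.7% of all genes. Both leukaemic arrays lay above both wild type arrays for 7 regulators, as for 23% of all genes, and below them for 1, as for 26.2% of all genes. The median difference was 0.48 over the 10 regulators and -0.03 over all genes.

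**Figure D1:**
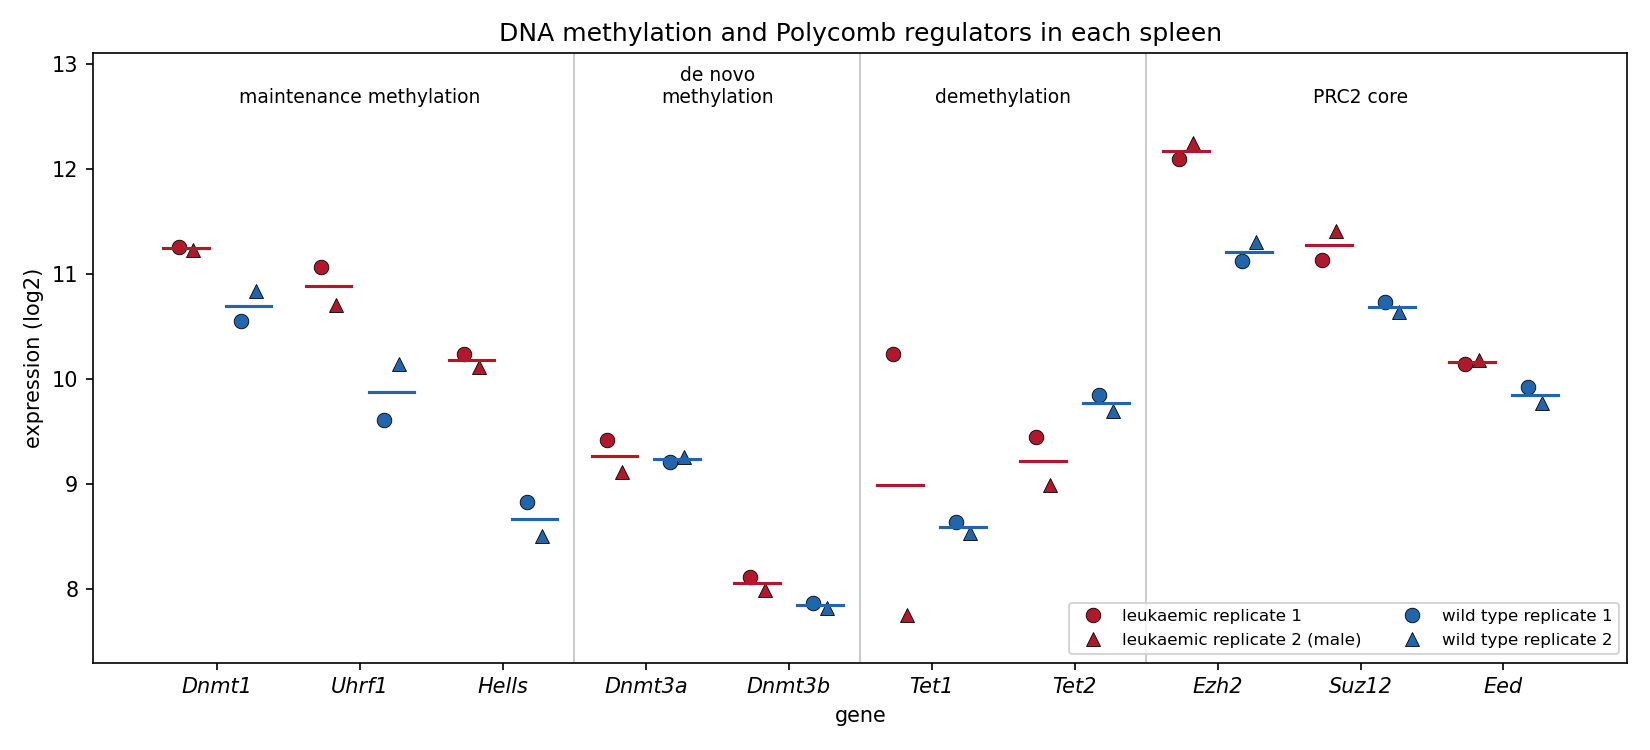
Log2 expression (vertical axis) of the 10 regulators in each spleen, with 1 symbol per mouse, leukaemic mice in red and wild type mice in blue; horizontal lines are group means of 2 mice. Hells and Ezh2 are clearly separated between groups, Dnmt3a overlaps, and Tet1 lies at 10.23 in leukaemic replicate 1 and at 7.75 in leukaemic replicate 2.

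Hells, the remodeller of the maintenance group, showed the largest difference of the 10. Its values were 10.24 and 10.11 in leukaemic spleens, against 8.83 and 8.51 in wild type spleens. The groups were 1.28 apart at their nearest arrays. The fold change was 2.84 (log2 1.51, SE 0.16, limma adjusted p = 0.013). Without wild type replicate 1 the adjusted p was 0.079 and without wild type replicate 2 it was 0.15, at differences of 1.67 and 1.35. Its partner Cdca7, a zinc finger protein that activates the Hells remodeller, rose by 1.24 (SE 0.14, limma adjusted p = 0.013), with 11.55 and 11.44 in leukaemic spleens and 10.24 and 10.28 in wild type spleens. In humans HELLS, CDCA7, DNMT3B and ZBTB24 are the genes of one inherited syndrome of immunodeficiency with centromere hypomethylation. Zbtb24 differed by 0.02 (SE 0.17) and Dnmt3b by 0.21 (SE 0.14), and neither passed.

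Uhrf1 read 11.06 and 10.70 in leukaemic spleens, against 9.61 and 10.15 in wild type spleens. Both leukaemic mice lay above both wild type mice, and the wild type mice were themselves 0.54 apart. The difference of 1.005 (SE 0.22, 95% interval 0.48 to 1.53) was close to 2-fold and did not pass (limma adjusted p = 0.065). It passed with a mean-dependent robust variance prior (limma adjusted p = 0.034). With leukaemic replicate 2 left out the difference was 1.18, and with leukaemic replicate 1 left out it was 0.83. Dnmt1 read 11.26 and 11.22 in leukaemic spleens, against 10.55 and 10.84 in wild type spleens. These groups did not overlap either, but the difference of 0.55 (SE 0.15) did not pass (limma adjusted p = 0.11). Uhrf2, the paralogue of Uhrf1, differed by 0.53 (SE 0.16, limma adjusted p = 0.13).

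The de novo enzymes showed no difference past the test. Dnmt3a had 9.42 and 9.11 in leukaemic spleens, against 9.21 and 9.26 in wild type spleens. The 2 leukaemic values lay on either side of the wild type pair. The interval of its difference ran from -0.34 to 0.41, around 0.03 (SE 0.16, limma adjusted p = 0.96). Dnmt3b had 8.12 and 7.99 in leukaemic spleens, against 7.87 and 7.82 in wild type spleens. Its groups were 0.12 apart and the interval ran from -0.12 to 0.54 (limma adjusted p = 0.48). Dnmt3l, a cofactor of both enzymes without activity of its own, differed by -0.26 (SE 0.14, limma adjusted p = 0.36). It read 6.08 and 6.02 in leukaemic spleens, against 6.28 and 6.33 in wild type spleens, and was not shown to be above background.

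Tet1 separated the leukaemic mice from each other and not the groups. Its values were 10.23 in leukaemic replicate 1 and 7.75 in leukaemic replicate 2, against 8.64 and 8.53 in wild type spleens. The leukaemic mice thus lay above and below the wild type pair, 2.48 apart. Among all 19297 genes 18, or 0.0933%, had a gap between the leukaemic mice at least as large, and over the other 9 regulators the largest such gap was 0.46. The 2 further Tet1 probe sets gave the same order of the leukaemic mice, with 9.09 and 7.25 in leukaemic replicates 1 and 2 for one and 9.02 and 6.71 for the other. Wild type replicates 1 and 2 read 7.58 and 7.39 on the first of these and 7.25 and 6.78 on the second. The group difference of 0.41 (SE 0.69) did not pass (limma adjusted p = 0.84). Without leukaemic replicate 2 it was 1.65 and without leukaemic replicate 1 it was -0.83, each resting on a lone leukaemic mouse. The leukaemic mice also differed in sex and age, and with 1 mouse each these cannot be told apart from the animal.

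**Figure D2:**
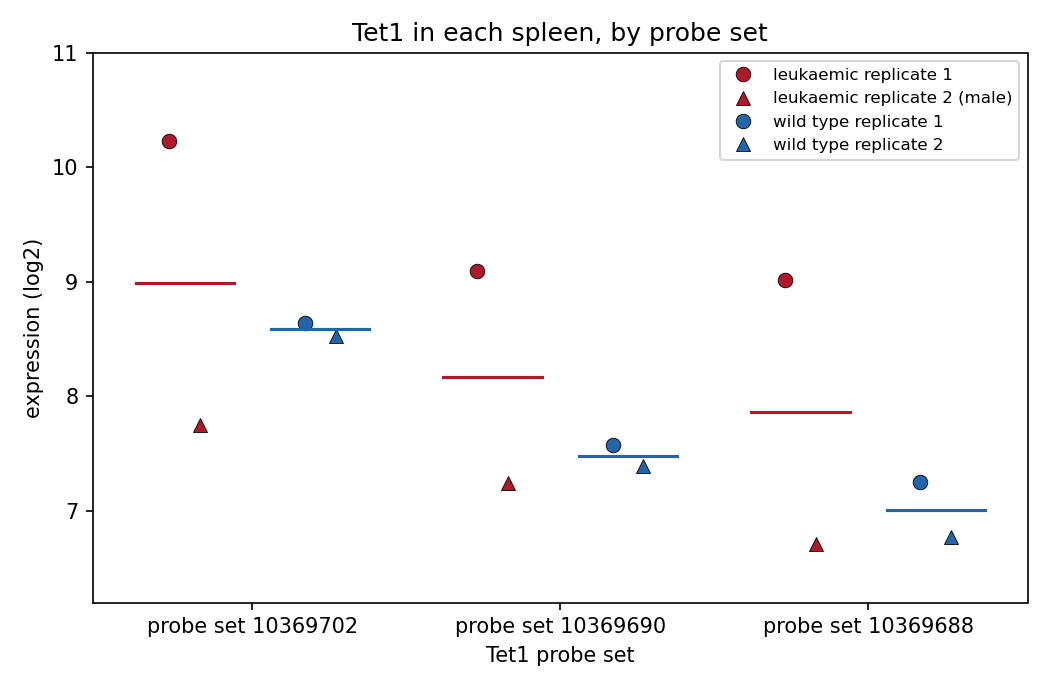
Log2 expression (vertical axis) of the 3 Tet1 probe sets in each spleen, leukaemic mice in red and wild type mice in blue; lines are group means of 2 mice. Leukaemic replicate 1 is the highest array on each probe set, between 1.51 and 1.77 above the next.

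Tet2 was the one regulator whose leukaemic arrays both lay below wild type. It read 9.45 and 8.99 in leukaemic spleens, against 9.85 and 9.69 in wild type spleens. The nearest arrays were 0.25 apart, and the difference of -0.55 (SE 0.19) did not pass (limma adjusted p = 0.16). Tet3, the third enzyme of this family, differed by -0.11 (SE 0.15). Of 5 measured genes of demethylation 0 passed. An unadjusted p under 0.05 was found for 2 (40%, against 20.7% of all genes), Tet2 and Apex1. Apex1, an endonuclease of base excision repair, had a difference of 0.93 (SE 0.22, limma adjusted p = 0.074).

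Ezh2 rose in leukaemic spleen. Its values were 12.09 and 12.24 in leukaemic spleens, against 11.12 and 11.30 in wild type spleens. The groups were 0.79 apart at their nearest arrays, and the fold change was 1.94 (log2 0.96, SE 0.15, limma adjusted p = 0.033). The adjusted p was 0.15 without either wild type mouse, 0.058 without leukaemic replicate 2 and 0.056 after quantile normalization. Suz12, which holds PRC2 together, read 11.13 and 11.41 in leukaemic spleens, against 10.74 and 10.63 in wild type spleens. Its groups did not overlap, and the difference of 0.58 (SE 0.16) did not pass (limma adjusted p = 0.098). Eed, the subunit that binds the methylated histone, read 10.14 and 10.18 in leukaemic spleens, against 9.93 and 9.77 in wild type spleens. The difference of 0.31 (95% interval -0.02 to 0.65) did not pass (limma adjusted p = 0.28).

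The alternative PRC2 enzyme Ezh1 had 9.85 and 10.09 in leukaemic spleens, against 10.32 and 10.37 in wild type spleens. Its difference of -0.38 (SE 0.15) was opposite in sign to that of Ezh2 and did not pass (limma adjusted p = 0.21). The accessory subunits that are paralogues of each other went both ways. Phf19 rose by 1.34 (SE 0.15), with 8.89 and 8.90 in leukaemic spleens and 7.66 and 7.44 in wild type spleens, and Mtf2 rose by 0.86 (SE 0.16). Phf1 fell by 0.84 (SE 0.14), to 8.94 and 9.02 in leukaemic spleens against 9.84 and 9.80 in wild type spleens. Adjusted p from limma was 0.013, 0.049 and 0.035 for these 3 genes. Jarid2 and Aebp2, subunits of the other form of PRC2, did not pass. Differences between paralogues were not tested.

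Polycomb repressive complex 1 (PRC1) ubiquitinates histone H2A and compacts chromatin. Of its 20 measured genes 2 were higher (10%, against 1.43% of all genes) and 1 was lower (5%, against 1.03%). Its chromobox subunits read the mark set by PRC2. Cbx2 rose by 1.27 (SE 0.17, limma adjusted p = 0.022), with 9.52 and 9.86 in leukaemic spleens and 8.35 and 8.50 in wild type spleens. Cbx7 fell by 0.82 (SE 0.13, limma adjusted p = 0.036), to 8.08 and 8.05 in leukaemic spleens against 8.91 and 8.85 in wild type spleens. Cbx8 differed by 0.01 (SE 0.15). The other rise was Scmh1, a Scm family protein (1.08, SE 0.16, limma adjusted p = 0.032). The catalytic subunits Ring1 and Rnf2 differed by -0.31 (SE 0.13) and 0.29 (SE 0.17), and Bmi1, the subunit known from leukaemia and stem cell renewal, by 0.42 (SE 0.24); none of these 3 passed.

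Outside the 10 regulators, 56 further genes of these pathways were measured, a list that was drawn up with earlier results of these data known. Of these, 6 rose (10.7%, against 1.43% of all genes) and 2 fell (3.57%, against 1.03%), with a median difference of 0.21 (-0.03 over all genes). The 8 were Cdca7, Phf19, Mtf2, Cbx2, Scmh1, Phf1, Cbx7 and, from the supply of methyl groups, Shmt1, a serine hydroxymethyltransferase of the folate cycle. Shmt1 rose by 1.39 (SE 0.14, limma adjusted p = 0.0097), with 9.33 and 9.29 in leukaemic spleens and 7.86 and 7.98 in wild type spleens. Without wild type replicate 1 or 2, 0 of the 8 genes were called, and without leukaemic replicate 1 the count over the 56 was 4. Among 6 readers of methylated CpG 0 passed and 3 (50%, against 20.7% of all genes) had an unadjusted p under 0.05. Zbtb4 had the smallest p (difference -0.64, SE 0.13, limma adjusted p = 0.060). Among 8 genes that oppose Polycomb, histone demethylases, deubiquitinases and the Asxl cofactors of Bap1, 0 passed. An unadjusted p under 0.05 was found for 2 (25%), and the smallest was that of Asxl3 (-0.37, SE 0.13, limma adjusted p = 0.19). Asxl3 read 6.39 and 6.34 in leukaemic spleens, against 6.73 and 6.74 in wild type spleens, and was not shown to be above background.

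**Figure D3:**
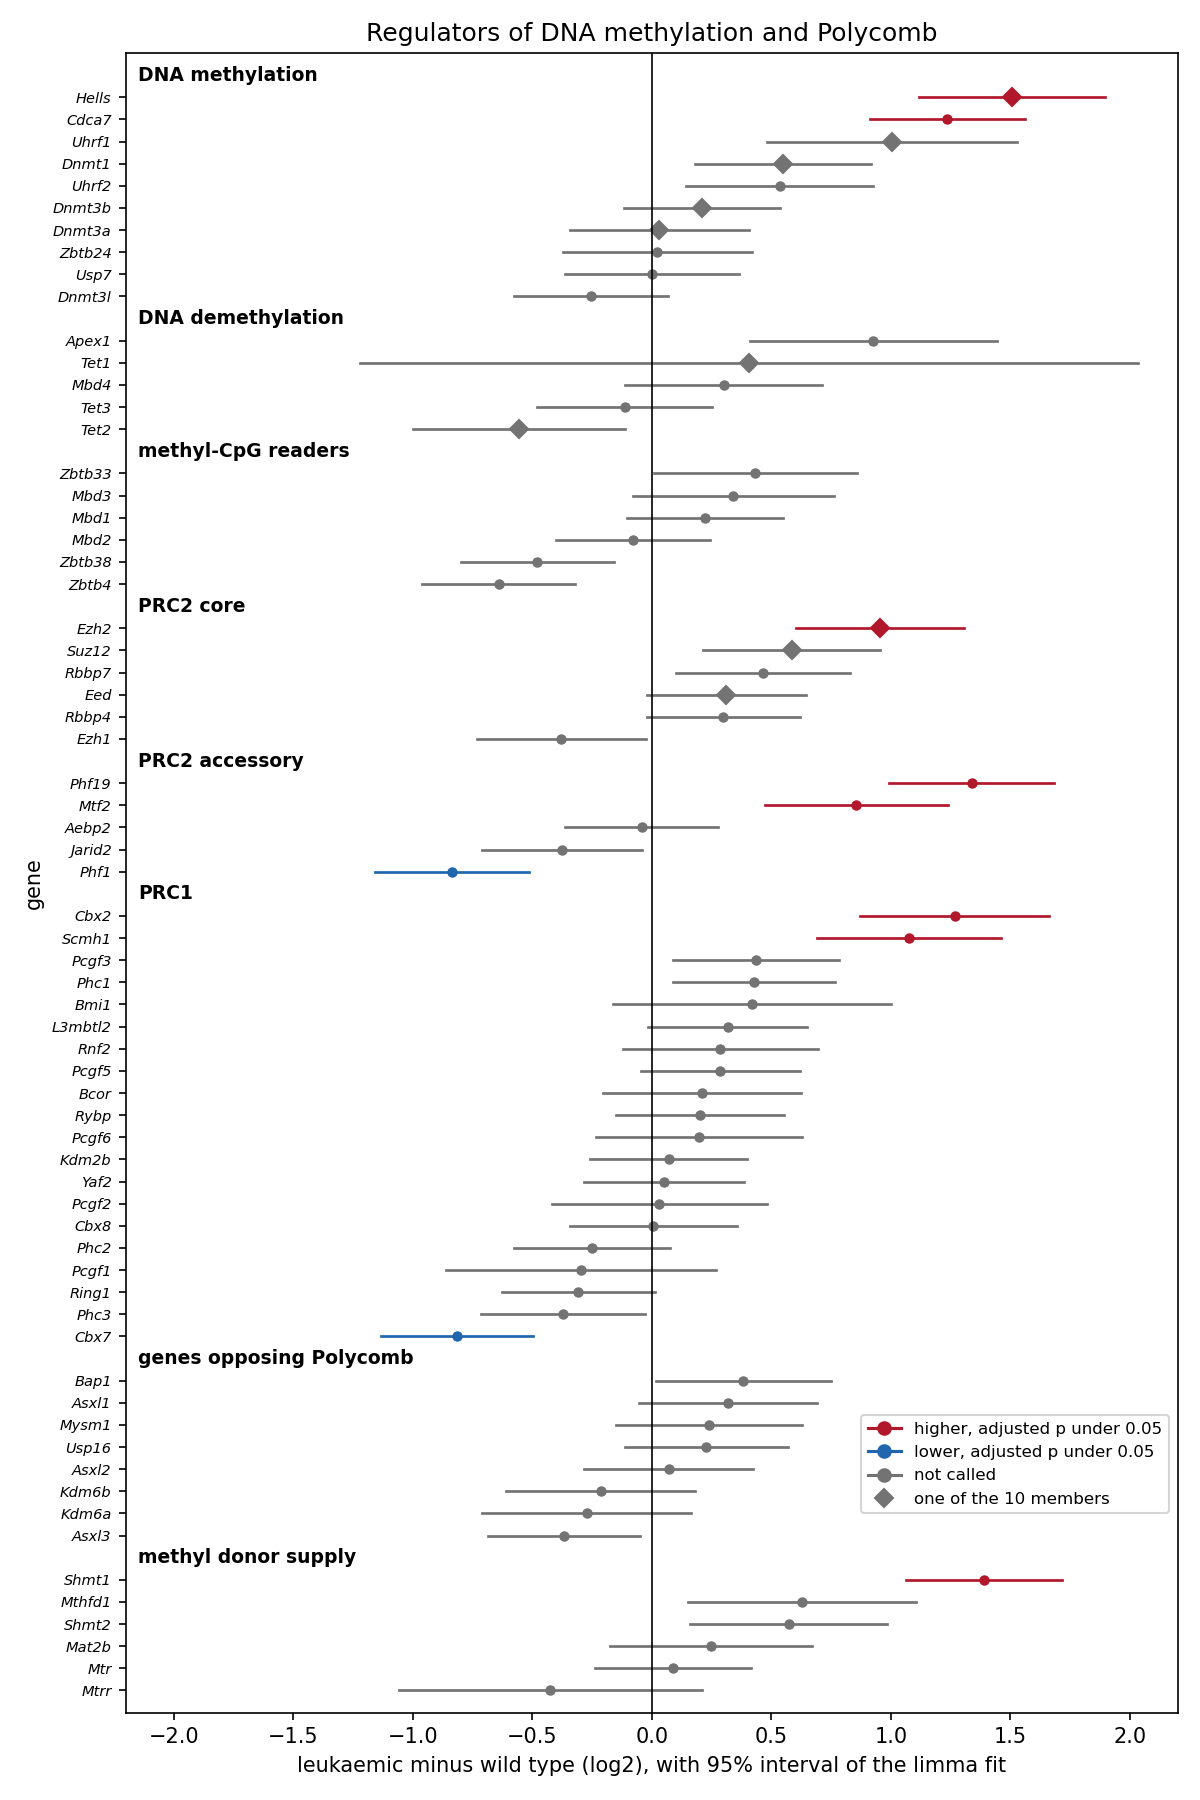
Difference between leukaemic and wild type spleens (horizontal axis, log2) of the 10 regulators (diamonds) and 56 further pathway genes (circles), with the 95% interval of the limma fit. Red marks the 8 genes called higher and blue the 2 called lower; grey genes did not pass.

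Genes that DNA methylation or Polycomb is known to keep silent, for imprinted genes on 1 parental allele only, were read in 3 lists, with 0 calls in each. With 2.46% of all genes called, lists of this size would hold few calls in any case, so these counts do not set the lists apart. At an unadjusted p under 0.05 stood 20.7% of all genes. Of 17 germline genes silenced by methylation in body cells, such as Dazl and Ddx4, 0 were called by limma and 0 had an unadjusted p under 0.05, with a median difference of -0.01. The smallest p was that of Dpep3 (-0.23, SE 0.15). Of 24 Polycomb targets, homeobox genes for the most part, 0 were called and 1 had an unadjusted p under 0.05, Wt1 (-0.40, SE 0.14), with a median of -0.05. Cdkn2a, the cell cycle inhibitor locus repressed by Polycomb, had 7.86 and 7.50 in leukaemic spleens, against 6.99 and 7.54 in wild type spleens. The groups overlapped. Of 15 imprinted genes 0 were called and 5 (33.3%) had an unadjusted p under 0.05, with a median of -0.27; Grb10, a growth factor receptor adaptor, had the smallest p (0.75, SE 0.21, limma adjusted p = 0.10). Values of the germline genes (median 5.45) were not shown to be above background, as 19 genes of eye, brain, muscle, kidney and liver had a median of 6.33 on these arrays. The Polycomb targets had a median of 7.07 and a highest value of 8.85, and the imprinted genes 7.41 and 9.42. The 19 genes of other tissues reached up to 9.45. That was Tnnt2 in leukaemic replicate 2, with 8.08, 8.09 and 7.86 on its other arrays. Umod, also of the 19, read 9.09 and 7.74 in leukaemic spleens, against 6.54 and 6.52 in wild type spleens. Both varied between mice, so their peaks do not mark a background level. No such level was set, so the Polycomb targets and imprinted genes were not shown to be above background either.

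DNA replication genes were read beside the regulators. Of 20 measured, 6 rose (30%, against 1.43% of all genes) and 0 fell. At an unadjusted p under 0.05 stood 15 (75%, against 20.7% of all genes). The median difference was 0.59, against -0.03 over all genes. The largest differences among the 6 were those of Prim1, a primase subunit (1.13, SE 0.15, limma adjusted p = 0.024), and Chaf1b, a histone chaperone subunit (1.13, SE 0.17, limma adjusted p = 0.031). Of 15 mitosis genes 2 rose (13.3%, against 1.43% of all genes), Bub1b (1.10, SE 0.17) and Bub1 (0.996, SE 0.15). An unadjusted p under 0.05 was found for 8 (53.3%), and the median was 0.67. Both leukaemic arrays lay above both wild type arrays for 11 of the 15 (73.3%, against 23% of all genes). The groups overlapped for 4, among them Mki67 (0.17, SE 0.17) and Ccnb2 (0.20, SE 0.16). Of the 20 replication genes 19 lay above (95%) and 1 overlapped, Rrm2 (0.15, SE 0.18). The replication mean was 0.71 above the wild type mean in leukaemic replicate 1 and 0.58 above it in leukaemic replicate 2. On the same scale Hells stood at 1.57 and 1.44, Uhrf1 at 1.18 and 0.83, Ezh2 at 0.88 and 1.03, Dnmt1 at 0.57 and 0.53, and Suz12 at 0.44 and 0.72. Dnmt3a stood at 0.18 and -0.12. Wild type replicate 2 was 0.18 above wild type replicate 1 in the replication mean and 0.42 above it in the mitosis mean. The part of cell division in the regulators' differences was not tested.

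**Figure D4:**
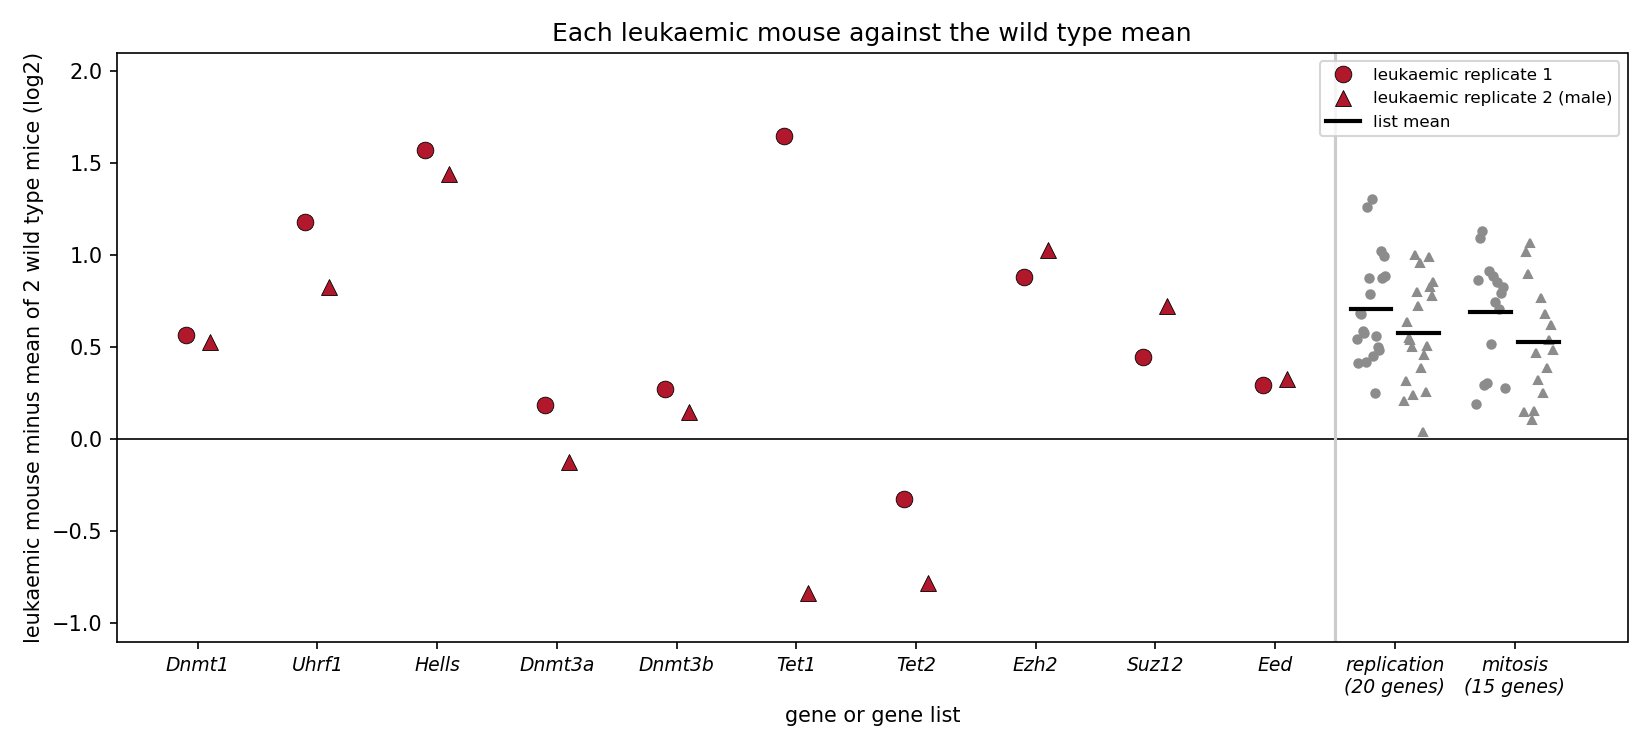
Each leukaemic mouse minus the mean of the 2 wild type mice (vertical axis, log2) for the 10 regulators in red and for single genes of the replication and mitosis lists in grey, with list means as black bars; circles are leukaemic replicate 1 and triangles leukaemic replicate 2. Both leukaemic mice are above zero for Hells, Uhrf1, Ezh2, Suz12, Dnmt1, Eed and Dnmt3b, both are below it for Tet2, and they fall on either side of it for Tet1 and Dnmt3a.

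Promoters were searched for E2F strings because E2F factors are known to drive replication genes in S phase. Promoter windows came from RefSeq (GRCm38.p6) and covered 250 bases before to 50 bases after each annotated start, 15 windows for all 10 regulators. The letters searched for E2F were TTTCCCGC, TTTGGCGC, TTTCGCGC and TTTGCCGC, on both strands. A window of 5 of the 10 regulators held one of them, namely Hells, Ezh2, Uhrf1, Dnmt1 and Suz12, and none of these matches overlapped another match. These 5 had the 5 largest positive differences of the 10 and include both called genes. The share was 2.26% of all 32851 windows, and 5.03% of the 11756 windows rich in CpG (observed over expected above 0.6). By gene it was 534 of 15161 tested genes with a window (3.52%), 29 of 225 called higher (12.9%) and 4 of 162 called lower (2.47%). It was 6 of 17 replication genes (35.3%), 1 of 12 mitosis genes (8.33%) and 2 of 48 further pathway genes (4.17%). A match is a string of letters and not a shown binding site. Neither these shares nor the link between a match and the size of the difference was tested. CCAAT stood in 7 of the 15 windows (37.4% of all windows) and TTTGAA in 4 (17.9%), again on both strands.

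The whole windows of the 2 called genes are shown, 5′ to 3′ on the gene's own strand, with the E2F letters in capitals. That of Hells is chr19:38930740-38931039 on the plus strand, with the match 62 bases before the start. That of Ezh2 is chr6:47594981-47595280 on the minus strand, with the match beginning at base 4 of the transcript.
Hells: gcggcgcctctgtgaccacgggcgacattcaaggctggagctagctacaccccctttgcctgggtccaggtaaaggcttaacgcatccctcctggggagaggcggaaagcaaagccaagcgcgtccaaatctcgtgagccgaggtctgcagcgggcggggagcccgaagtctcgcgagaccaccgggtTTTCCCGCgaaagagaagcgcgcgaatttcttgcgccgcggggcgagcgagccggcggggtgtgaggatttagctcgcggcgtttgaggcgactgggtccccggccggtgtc
Ezh2: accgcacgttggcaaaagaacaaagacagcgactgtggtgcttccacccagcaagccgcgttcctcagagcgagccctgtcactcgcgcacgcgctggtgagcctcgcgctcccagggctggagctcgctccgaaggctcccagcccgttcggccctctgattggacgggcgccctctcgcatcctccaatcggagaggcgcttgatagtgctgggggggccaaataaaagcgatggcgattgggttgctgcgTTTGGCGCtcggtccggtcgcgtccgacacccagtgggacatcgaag
For Uhrf1, Dnmt1 and Suz12, 60 bases around each match are given for comparison. They lie at chr17:56304102-56304161 (plus strand), chr9:20952809-20952868 and chr9:20952574-20952633 (minus strand), and chr11:79992861-79992920 (plus strand).
Uhrf1: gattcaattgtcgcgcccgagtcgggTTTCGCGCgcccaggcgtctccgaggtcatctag
Dnmt1, upstream match: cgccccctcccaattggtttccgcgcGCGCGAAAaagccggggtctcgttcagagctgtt
Dnmt1, transcribed match: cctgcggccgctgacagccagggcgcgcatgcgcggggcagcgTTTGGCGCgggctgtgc
Suz12: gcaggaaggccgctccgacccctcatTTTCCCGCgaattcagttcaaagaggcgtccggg
The Uhrf1 match was 185 bases before the start of one of its 2 windows. Dnmt1 held 2 matches in one of its 3 windows, one 219 bases before the start and one beginning at base 34 of the transcript. The Suz12 match was 219 bases before its start. The windows of Eed, Dnmt3a, Dnmt3b, Tet1 and Tet2 held none of these strings, which says only that the letters are not in those windows. CpG was dense in most: 11 of the 15 windows were above an observed over expected ratio of 0.6, against 35.8% of all windows, and Tet2 had the most, with 57 CpG in 300 bases (median of all windows 7).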

How the data were processed

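Total RNA of 4 whole spleens was hybridised to Affymetrix arrays, 1 array per mouse. The authors deposited log2 expression values for 23309 probe sets; RMA, R 2.15.0 and limma 3.12.1 are named in the submitters' processing notes, with the genome build not given in the sources used here. Names came from the platform annotation, which gave 20729 probe sets a single symbol. limma 3.58.1 in R 4.3.3 (lmFit, eBayes, no covariate) was fitted to these probe sets. One probe set per gene was kept (highest mean), and p-values were adjusted over 19297 genes by the Benjamini-Hochberg method, with calls at 0.05. The fit had 2 residual and 4.83 prior degrees of freedom. No gene can pass an exact permutation test with 2 mice a group (smallest two-sided p 0.333). Replicates were individual mice, per the labels, and precision is limited by the number of arrays. The scripts were tested on simulated data. Promoters were searched with Python 3.11.15 and pandas 2.3.3.

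The members and gene lists were chosen with earlier results of these data known. All 10 members are named. Of each pathway list, every called gene is named if 5 or fewer were called, otherwise the largest 2, or the gene of smallest p where none was called; others were named after their values were seen. Some listed genes were not analysed here. Alternatives covered normalization, removal of the dimmest probe sets, the prior on the variance, the rows in the fit, the choice of probe set, the replicate number as a block and each mouse left out.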

Additional observations from a re-analysis of the deposited data

Results flagged for a closer look

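Tet1 had 2 probe sets outside the comparison, since the brightest of its 3 stood for the gene. Both carried signal above wild type in leukaemic replicate 1, by 1.51 (probe set 10369690) and 1.77 (probe set 10369688) on the log2 scale over the higher wild type array. On both, leukaemic replicate 2 lay below the 2 wild type arrays, at 7.25 against 7.39 and 7.58, and at 6.71 against 6.78 and 7.25. The second Eed probe set, 10554837, read 5.69 and 5.99 in leukaemic spleens, against 5.48 and 5.68 in wild type spleens.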

How the results depend on the processing

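Of 110 values of single regulators under 11 alternatives, 97 kept their direction and their side of the threshold, 6 lost a call, 4 gained one and 3 changed sign. The sign changes were Dnmt3a after quantile normalization (-0.0025) and, without leukaemic replicate 1, Dnmt3a and Tet1; with each mouse left out Dnmt3a ranged from -0.12 to 0.18 and Tet1 from -0.83 to 1.65. Hells was called in 9 of 11 alternatives, Ezh2 in 7, Uhrf1 in 3, Tet1 in 1 and the other 6 regulators in 0. With each mouse left out, the number of called regulators ranged from 0 to 3, that of the 56 further pathway genes (a count added after seeing the data) from 0 to 7, and that of all genes from 0 to 450 higher and from 0 to 593 lower. Without wild type replicate 1, 0 regulators and 0 further genes were called, and 12 genes higher and 26 lower, with 4501 genes at an unadjusted p under 0.05; without wild type replicate 2 all 4 counts were 0, with 3142 genes at that p. These fits have 1 residual degree of freedom and 2.79 prior degrees of freedom. In the fits without a leukaemic mouse the residual degree was also 1, but the prior degrees were infinite. Every gene then had the same SE (0.30), whatever its own spread. The Tet1 call, and the Uhrf1 call without leukaemic replicate 2, come from such a fit. So do the Hells calls without leukaemic replicate 1 and without leukaemic replicate 2, and the Ezh2 call without leukaemic replicate 1. Quantile normalization called 1 regulator and 168 genes higher and 93 lower, and the trended robust prior 509 and 456. Median centring called 70.4% of its genes higher, against 58.1% as deposited. The cause of these changes was not tested. The replicate number as a block called 3 regulators (Uhrf1 added), 11 of the 56 further genes, and 785 genes higher and 908 lower; same-numbered mice shared only a number (correlation of deviations across genes -0.09).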

Other observations

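The genes whose values were most like those of the 2 called regulators were found by the root mean square distance between values centred on each gene's 4-array mean. For Hells they were Psat1, an enzyme of serine synthesis (distance 0.04), Prrg4 (0.04, with 8.97 and 8.73 in leukaemic spleens and 7.47 and 7.19 in wild type spleens) and Fam221a (0.04). For Ezh2 they were Cabp4 (0.02), Prr11 (0.02) and Hirip3 (0.04), with 8.70 and 8.80 in leukaemic spleens and 7.75 and 7.85 in wild type spleens for Hirip3, which encodes a histone-binding protein. Likeness over 4 arrays is a description only.

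Over the 534 tested genes whose promoter window held one of the E2F strings, the median difference was 0.11, against -0.03 over the 14627 without. Another gene that stood apart between the leukaemic mice was Dntt, the DNA polymerase that adds bases at antigen receptor joints, with 6.51 and 8.05 in leukaemic spleens, against 6.46 and 6.54 in wild type spleens; leukaemic replicate 2 was the high one, where Tet1 was low. Dntt was chosen after its values were seen, and the groups, 0.78 apart on average with an SE of 0.44, overlapped (limma adjusted p = 0.39).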
